A study of Mus musculus with 7 samples.

Results

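Resting CD8-positive cytotoxic T cells (CD8-TC) of the mouse spleen carried histone H3 monomethylated at lysine 4 (H3K4me1) at 76705 genomic regions by chromatin immunoprecipitation and sequencing (ChIP-seq). This account concerns 4389 of them, 5.72% of the total (95% Wilson interval 5.56 to 5.89%), called remote regions, or members, here. They were chosen by their position and by the absence of a called Runx3-bound region. A missing call is not proof of missing Runx3. The authors report apparent Runx3 binding at some Serpin gene sites of resting CD8-TC that went uncalled because background was higher. A remote region shared no base with any of the 4934 Runx3-bound regions and was not among the widest H3K4me1-marked regions, a limit that left out those of 7340 bp or more. Its midpoint lay outside every protein-coding gene body and 50 kb or more from the nearest transcription start site (TSS) of any annotated gene. Of the 76705 regions, 72492 shared no base with a Runx3-bound region, 72076 of these were not among the widest, 27321 of these had an intergenic midpoint, and 4389 of these met the distance limit.

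The cells came from wild-type (WT) ICR mice, an outbred strain, with 18 mice pooled, and were isolated on anti-CD8 magnetic beads to a purity above 95% per the labels, which give neither the age nor the sex of the mice. No group carried an engineered allele or a treatment. H3K4me1 was precipitated with a monoclonal antibody (2 libraries) and Runx3 with an in-house polyclonal antibody (3 libraries of 2 repeats), and non-immune serum (NIS) from rabbit served as control. Each list of regions was called on the joined reads of both repeats, so no region has a replicate error, and every interval below covers counting error over regions only. Regions that neighbour each other on a chromosome are not independent, which these intervals do not take into account.

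H3K4me1 is laid down on nucleosomes around enhancers, DNA elements that raise transcription from a promoter that can be far away on the same chromosome. Runx3 is a Runt-domain transcription factor that directs the CD8 lineage, and its family binds the same letters through Runx1 and Runx2 as well. Genes that control development and cell identity often stand beside long stretches without any other gene, and enhancers within such stretches can act over large distances.

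The central 200 bp of the widest remote region in each of the 5 most populated stretches, described further on, are printed to show what these regions look like as DNA. Each line names the protein-coding genes to the left and right, and gives the position on the plus strand of NCBIM37 (mm9). Capitals mark the letters searched for on both strands as RUNX motifs (TGTGGT and TGCGGT as well as TGTGGC and TGCGGC) and ETS motifs (AGGAAA and AGGAAG as well as CGGAAA and CGGAAG) or their reverse complements.
Id2-Rnf144a, chr12:25894741-25894940: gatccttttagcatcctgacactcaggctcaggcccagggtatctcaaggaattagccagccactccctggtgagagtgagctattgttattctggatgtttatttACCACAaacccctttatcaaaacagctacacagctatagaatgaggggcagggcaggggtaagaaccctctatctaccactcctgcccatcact
Cd83-Jarid2, chr13:44056834-44057033: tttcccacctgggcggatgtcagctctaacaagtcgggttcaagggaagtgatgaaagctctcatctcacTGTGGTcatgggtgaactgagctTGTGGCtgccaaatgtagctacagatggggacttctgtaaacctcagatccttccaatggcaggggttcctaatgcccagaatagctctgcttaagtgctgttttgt
Eea1-Btg1, chr10:95870966-95871165: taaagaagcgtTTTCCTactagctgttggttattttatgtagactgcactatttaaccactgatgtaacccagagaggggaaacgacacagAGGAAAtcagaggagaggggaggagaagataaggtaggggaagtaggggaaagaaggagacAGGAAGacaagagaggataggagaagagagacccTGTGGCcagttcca
Myc-Gsdmc, chr15:61989841-61990040: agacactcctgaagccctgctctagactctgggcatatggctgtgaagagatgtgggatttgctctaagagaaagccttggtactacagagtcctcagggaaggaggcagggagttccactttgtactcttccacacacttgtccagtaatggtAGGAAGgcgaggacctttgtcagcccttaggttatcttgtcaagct
Ly86-Rreb1, chr13:37650814-37651013: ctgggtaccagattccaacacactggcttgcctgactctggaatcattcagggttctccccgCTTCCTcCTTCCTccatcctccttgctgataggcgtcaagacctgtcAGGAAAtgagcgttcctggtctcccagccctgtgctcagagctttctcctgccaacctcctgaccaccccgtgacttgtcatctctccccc
The region between Cd83 and Jarid2 held 2 RUNX motifs and no ETS motif in this window, and that between Ly86 and Rreb1 held 3 ETS motifs and no RUNX motif. The region between Eea1 and Btg1 held both kinds, 1 RUNX motif and 3 ETS motifs. The region beside Id2 held 1 RUNX motif only, and the region beside Myc held 1 ETS motif only.

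Remote regions were narrow. Their median width was 871 bp (95% interval of the median 848 to 890 bp), the quartiles were 594 and 1461 bp, and the full range ran from 256 to 6909 bp, the upper end being set by the width limit. In all they covered 5.19 Mb. H3K4me1-marked regions without Runx3 that lay outside protein-coding genes 5 to 50 kb from a TSS, 12218 in number, had a median of 891 bp (877 to 907 bp). The 314 remote H3K4me1-marked regions that did share a base with Runx3 were wider, with a median of 1976 bp (1772 to 2148 bp). A wider region has more chance of sharing a base with another, so this difference partly follows from how the sets were chosen.

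The 10 widest remote regions lay between 61021 and 222525 bp from a TSS. The widest, of 6909 bp on chr9:13359959-13366867, stood 61021 bp from the TSS of Maml2, a co-activator of Notch, and began 402 bp from a Runx3-bound region. A region of 6746 bp at chr9:118301318-118308063 had Eomes, a T-box factor of memory CD8-TC and natural killer cells, as its nearest protein-coding gene at 82640 bp. Another, of 6666 bp, stood 77510 bp from Zeb2, a zinc-finger repressor of terminal effector CD8-TC. The stretch between Cd83 and Jarid2 held 2 of the 10, of 6815 and 6651 bp, and that between A1bg and Myc held 2, of 6483 and 6256 bp. At the distance limit, the members just inside had midpoints 50018 and 50025 bp from a TSS, and the regions just outside, beside Nfib and Oxsm, 49990 and 49981 bp. At the width limit, the narrowest remote regions left out measured 7452 and 7492 bp, against 6909 and 6907 bp for the widest kept, and 9 regions were left out for width.

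The median distance to the nearest TSS was 90.5 kb (88.5 to 92.4 kb) and to the nearest protein-coding TSS 117 kb (113 to 120 kb). For 2835 remote regions, or 64.6%, the nearest TSS belonged to a protein-coding gene. For the others it was mostly that of a small nuclear RNA (251), a pseudogene (242), a long intergenic non-coding RNA (lincRNA, 240), a small nucleolar RNA (234) or a microRNA (226). Midpoints inside the body of a non-coding gene were few, 91 or 2.07%, of which 87 were in a lincRNA. The most distant region, of 530 bp at chr12:94166694-94167223 between Sel1l and Gm9726, was 767188 bp from any TSS. It had another H3K4me1-marked region 34902 bp away and a Runx3-bound region 48119 bp away.

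H3K4me1-marked regions thinned out steadily with distance. Sequence that qualified as remote added up to 727 Mb, 28.4% of the chromosomes, and held 6.04 remote regions per Mb (exact Poisson interval 5.86 to 6.22). Intergenic sequence 5 to 50 kb from a TSS held 18.4 regions without Runx3 per Mb (18.1 to 18.7), a ratio of 0.328 (0.317 to 0.340) between the remote and the nearer sequence. Within remote sequence the density was 10.3 per Mb at 50 to 75 kb, 8.28 at 75 to 100 kb, 6.37 at 100 to 150 kb, 5.28 at 150 to 200 kb, 3.39 at 200 to 300 kb and 1.48 at 300 to 500 kb. Beyond 500 kb only 24 regions were found in 41.1 Mb, or 0.584 per Mb (0.374 to 0.868). The intervals of neighbouring distance classes did not overlap anywhere along this series. Width did not follow the same course, since the median of every class fell between 823 and 915.5 bp.

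**Figure D1:**
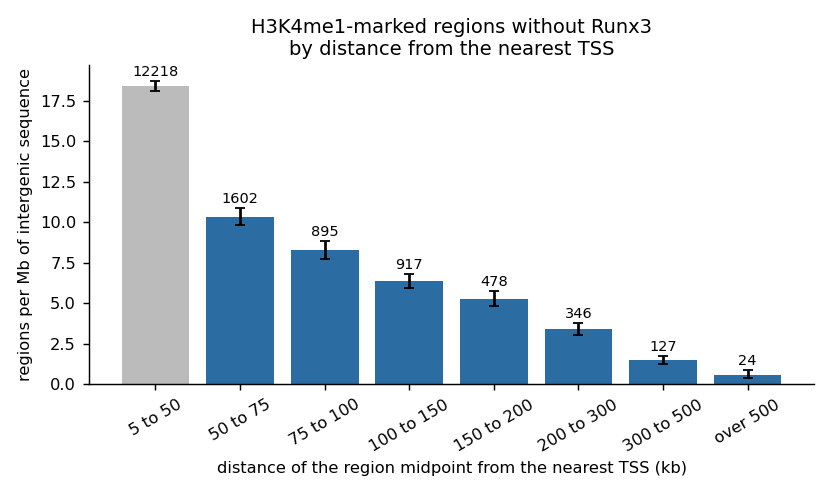
Density of H3K4me1-marked regions without Runx3 in intergenic sequence (y axis, regions per Mb) by distance of the midpoint from the nearest TSS (x axis, kb). Blue bars are remote regions and the grey bar the nearer intergenic regions, lines are exact 95% Poisson intervals, and numbers are regions. Density falls in every step, from 18.4 per Mb nearest the TSS to 0.584 per Mb beyond 500 kb.

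Remote regions came in groups. Another H3K4me1-marked region lay within 10 kb of 3305 of them (75.3%, 74.0 to 76.6%), and within 1 kb of 1908 (43.5%), and the median gap was 1792 bp. The share within 10 kb was 83.2% for intergenic regions 5 to 50 kb from a TSS, so that of remote regions minus this was -7.93 percentage points (Newcombe interval -9.38 to -6.51). It was 84.7% for remote regions with Runx3, a difference of -9.41 points in the same direction (-13.2 to -4.84). When members with gaps of at most 10 kb were joined into chains, 3162 of the 4389 (72.0%) had a partner, 1227 stood alone, and 164 chains of 5 or more held 1145 members.

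The longest chain spanned 88.8 kb between Rad51l1, a recombination factor, and Zfp36l1, an RNA-binding protein that destabilises messenger RNAs and favours quiescence. It contained 19 remote regions of 433 to 5750 bp covering 36.6% of its length, with no Runx3-bound region inside. A chain of 87.3 kb between Irf2bp2 and Tomm20 had 14 members of 403 to 5825 bp and 1 Runx3-bound region. The chain between Eea1, a protein of early endosomes, and Btg1 spanned 67.9 kb with 11 members and no Runx3-bound region, while one of 65.6 kb between F930017D23Rik and Gm9034 on chromosome 10 had 18 members that covered 55.4% of it, also without Runx3. The fifth, of 63.4 kb between Rap1b, a small GTPase of integrin signalling, and Mdm1, differed in that 3 Runx3-bound regions lay between its 12 members.

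The gap to the nearest Runx3-bound region was measured, as a description, since the rule used Runx3. Such a region lay within 10 kb of 495 remote regions (11.3%, 10.4 to 12.2%), within 50 kb of 1366 (31.1%) and within 100 kb of 2017 (46.0%). The median gap was 118 kb (111 to 125 kb). Only 60 members had a Runx3-bound region within 1 kb, and the smallest gap was 4 bp.

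To ask where in the genome remote regions accumulate, remote sequence was divided into 2941 intervals, each lying between adjacent protein-coding genes and holding at least 1 kb of remote sequence. The regions were concentrated in a minority of them. At least 1 remote region was present in 933 intervals, 31.7% of the total (30.1 to 33.4%), at least 5 in 283, or 9.62%, and at least 10 in 110. The 294 intervals with the most members held 3251 of them, or 74.1%, in 15.9% of remote sequence. Intervals with no member made up 449 Mb, or 61.7%, of remote sequence.

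Size of the interval did not bring more regions in proportion. Intervals with 1 to 100 kb of remote sequence held 18.2 remote regions per Mb (17.1 to 19.3), those with 100 to 300 kb 10.9, those with 300 to 1000 kb 5.18 and those above 1000 kb 1.80 (1.64 to 1.96). The size of an interval was not separated from the distance to a TSS. Among the 157 intervals above 1000 kb, 61 held a member (38.9%).

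The interval with the most members lay between Id2 and Rnf144a on chr12:25780958-26991661. Id2 is an inhibitor of E-protein transcription factors that is needed for effector CD8-TC and natural killer cells, and Rnf144a is a ubiquitin ligase. It held 61 remote regions of 400 to 4783 bp, 57.5 per Mb of remote sequence, which together covered 88.2 kb. Their midpoints lay 59.4 to 1090 kb from the TSS of Id2, with a median of 224 kb, so they crowded at the Id2 end. Within the same remote sequence 5 H3K4me1-marked regions shared a base with Runx3. A RUNX motif stood in the central 200 bp of 24 of the 61, and an ETS motif in that of 31.

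Between Cd83, a surface protein of activated lymphocytes and dendritic cells, and Jarid2, a cofactor of Polycomb repression, 48 remote regions of 379 to 6815 bp were found, and no Runx3-bound region had its place in the remote sequence of the interval. Here the median distance was 246 kb from Jarid2 and 698 kb from Cd83. The interval between Eea1 and Btg1, an anti-proliferative gene of resting lymphocytes, held 44, or 104 per Mb (75.9 to 140), with a median distance of 256 kb from Btg1 and 2 remote Runx3-bound regions. Btg1 also had 20 remote regions on its other side, towards Dcn, with a median width of 886.5 bp against 1435.5 bp in the former.

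Myc, the master regulator of cell growth on activation, stood between a pair of populated intervals. The one towards Gsdmc held 39 remote regions over 1266 kb of remote sequence, 105 to 1717 kb from the TSS of Myc, and the one towards A1bg held 24, at 77.5 to 575 kb from Myc. Of the latter only 2 had a RUNX motif in the central 200 bp, while 14 had an ETS motif. Remote Runx3-bound regions numbered 5 and 3 in these intervals.

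The other intervals among the 10 held 32 to 37 remote regions each. They lay between Ly86 and Rreb1 (37, 120 per Mb), Rad51l1 and Zfp36l1 (36, 141 per Mb), Trib2 and Lpin1 (35), Agtr1b and Tbl1xr1 (34), Satb1 and Kcnh8 (33), and Nmbr and Cited2 (32). Bcl6 and Lpp bordered an interval that tied at 32. Satb1 is a chromatin organiser of T cells, Tbl1xr1 a subunit of a nuclear co-repressor, Cited2 a regulator of the p300 and CBP co-activators, and Bcl6 a repressor that sustains memory and follicular programmes. In 3 of the 10, beside Zfp36l1, beside Cited2 and between Cd83 and Jarid2, no Runx3-bound region was called in the remote sequence. The Cited2 interval was by far the longest, with 2663 kb of remote sequence, yet the median distance of its 32 members from Cited2 was 297 kb. By density among intervals with at least 200 kb of remote sequence, the order was Rad51l1 to Zfp36l1, Ly86 to Rreb1, Irf2bp2 to Tomm20 (28 members, 111 per Mb), Bcl6 to Lpp (105 per Mb) and Eea1 to Btg1. The Poisson intervals of these 5 densities all overlap, the lowest bound being 71.9 and the highest 196 per Mb.

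**Figure D2:**
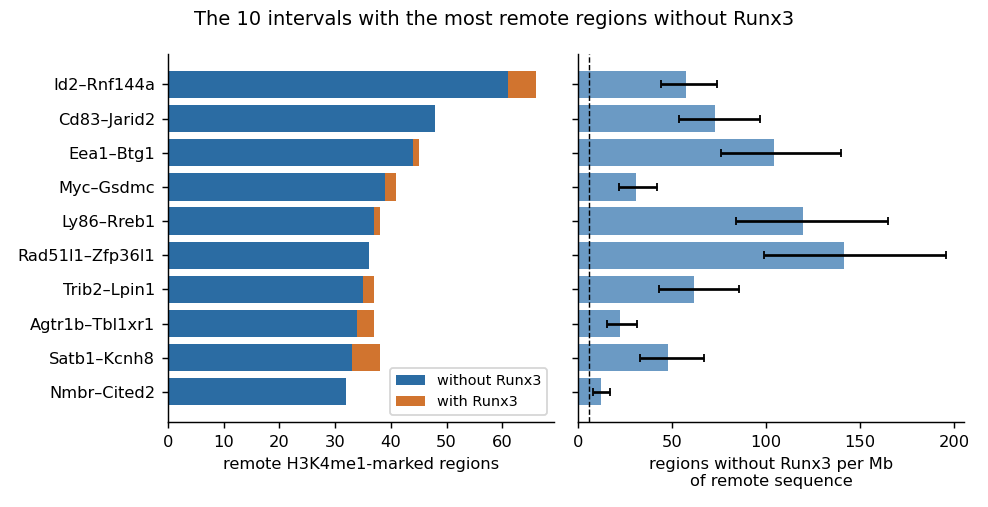
Remote H3K4me1-marked regions in the 10 intervals with the most of those without Runx3 (rows, named by bordering genes): counts without Runx3 in blue and with Runx3 in orange on the left, and density without Runx3 per Mb with exact 95% Poisson intervals on the right. The dashed line is the density over all remote sequence, 6.04 per Mb, and every interval shown lies above it.

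Intervals that held a remote H3K4me1-marked region with Runx3 mostly held a member too, whereas most intervals with a member held no such region. Of the 933 intervals with a member, 169 (18.1%, 15.8 to 20.7%) also held a remote H3K4me1-marked region with Runx3, and 2658 of the 4389 members (60.6%) lay in intervals without any. Among the 110 intervals with 10 or more members, 55 held a remote H3K4me1-marked region with Runx3. Of the 2008 intervals without a member, 19 did (0.946%), although 193 of these held a Runx3-bound region in their remote sequence (9.61%), against 238 of the 933 with a member (25.5%).

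The longest interval with no remote region, Olfm4 to Pcdh17, contained 4043 kb of remote sequence, followed by Celf4 to Pik3c3 with 3950 kb, Dsel to Cntnap5a with 3420 kb, D3Ertd751e to Pcdh10 with 3336 kb and Cdh6 to Cdh9 with 3204 kb. Counts of 0 over these lengths allow densities of up to 0.912 to 1.15 per Mb. Pcdh17 and Pcdh10 encode protocadherins, Cdh6 and Cdh9 cadherins, and Cntnap5a a contactin-associated protein. In the remote sequence of these intervals 2, 0, 3, 3 and 2 Runx3-bound regions were called at sites that carried no remote H3K4me1-marked region.

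Genes were then scored by the remote regions in the intervals they border, and described by lists of genes of known function. The lists were chosen with earlier results of these data known, so their shares are descriptions and no list was tested. Of the 4656 protein-coding genes that border a remote interval, 561 bordered at least 5 members, or 12.0%, which is the background for the counts that follow, and 1707 (36.7%) bordered at least 1, with a median of 0. An interval counts for the gene on each side. Each list is also given with its median of remote sequence, which was 114 kb over all bordering genes, since a gene beside more sequence has more room for members.

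Members often lay beside T-cell transcription factors. Of 40 listed, 27 border a remote interval, and all 27 had at least 1 member, 20 had at least 5 (74.1%) and the median was 8, with a median of 276 kb of remote sequence. The counts were 63 for Myc, 61 for Id2, 44 for Satb1 and 32 for Bcl6. Ets1, which opens T-cell enhancers, and Foxo1, which maintains naive T cells, had 28 each, and Runx1, the relative of Runx3, had 26. Sox4, Zeb2 and Klf3 had 18 each, Lef1, an effector of Wnt signalling in naive T cells, had 13, and Eomes had 8. By nearest protein-coding TSS, Myc kept 46, Id2 40, Satb1 21, Bcl6 13 and Foxo1 10. Ets1, Zeb2 and Eomes kept all of theirs, while Runx1 kept 20, Sox4 15, Klf3 7 and Lef1 7. Runx3 itself bordered 5 members, all with Runx3 as the gene of the nearest protein-coding TSS. At the lower end were Bcl11b with 2 and Ikzf2, Myb, Nfatc2, Prdm1, Rora and Tcf12 with 1 each. The remote sequence beside Myb and Nfatc2 was only 4.28 and 7.84 kb.

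Genes of survival and quiescence gave a similar picture, with at least 5 members for 7 of the 9 that border an interval (77.8%) and a median of 13 over a median of 177 kb. Btg1 had 64, Zfp36l1 36, and its relative Zfp36l2 24. By nearest protein-coding TSS they kept 45, 36 and 20. Bcl2l11, which encodes the death protein Bim, had 13. Rgs1 and Rgs2, which shorten signalling by G-protein-coupled receptors, had 5 each, the anti-apoptotic Bcl2 had 1, and Pmaip1, which encodes the death protein Noxa, had 0.

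Of the trafficking receptors, 5 border a remote interval. All 5 had a member and 3 had at least 5. S1pr1, which lets T cells leave lymph nodes, had 18 (9 on each side), Cxcr4, a chemokine receptor, had 14, Cd44, an adhesion molecule of memory cells, had 9, Itgb1 4 and Itga4 1. By nearest protein-coding TSS, S1pr1 kept 13, Cxcr4 14 and Cd44 4. Of 5 cytokine receptors, 3 had at least 5, namely Il6st and Tgfbr2 with 9 each and Ifngr1 with 8, against 2 for Tgfbr3 and 0 for Il1r1. By nearest protein-coding TSS, Il6st kept 5, Tgfbr2 9 and Ifngr1 7. Il6st is the signalling chain shared by receptors of the interleukin-6 family. Its 9 members lay within 41.0 kb of remote sequence, or 219 per Mb, with median width 896 bp. Of 8 genes of T-cell receptor signalling and co-receptors, 3 had at least 5 (37.5%): the inhibitory receptor Btla had 10, the kinase Fyn 9 and Rasgrp1, an activator of Ras, 7. The 7 of Rasgrp1 lay 599 to 665 kb from its TSS and 104 to 170 kb from that of Thbs1 at the other border, and by nearest protein-coding TSS only 1 gene of this list kept at least 5. Cd226 and Icos had 0.

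Lists of other cell types were mixed. Among neural and developmental transcription factors 3 of 20 had at least 5 members (15.0%), Lmo4 with 22, Sox5 with 12 and Sox6 with 7, and 13 had none, over a median of 410 kb of remote sequence. By nearest protein-coding TSS Lmo4 kept 16, Sox5 2 and Sox6 0, so that 1 gene of the list had at least 5. Adhesion and synapse genes of neurons had the most room, a median of 2077 kb, and 1 of 28 had at least 5 (3.57%), Grik2 with 5, all of them 3755 to 3799 kb from the TSS of Grik2 and 106 to 150 kb from that of Hace1 at the other border. Of 6 B-cell genes 3 had at least 5, Bcl11a with 17, Ebf1 with 9 and Bank1 with 5, while Blk, Cr2 and Pax5 had 0. Of 2 myeloid genes, 1 had at least 5.

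**Figure D3:**
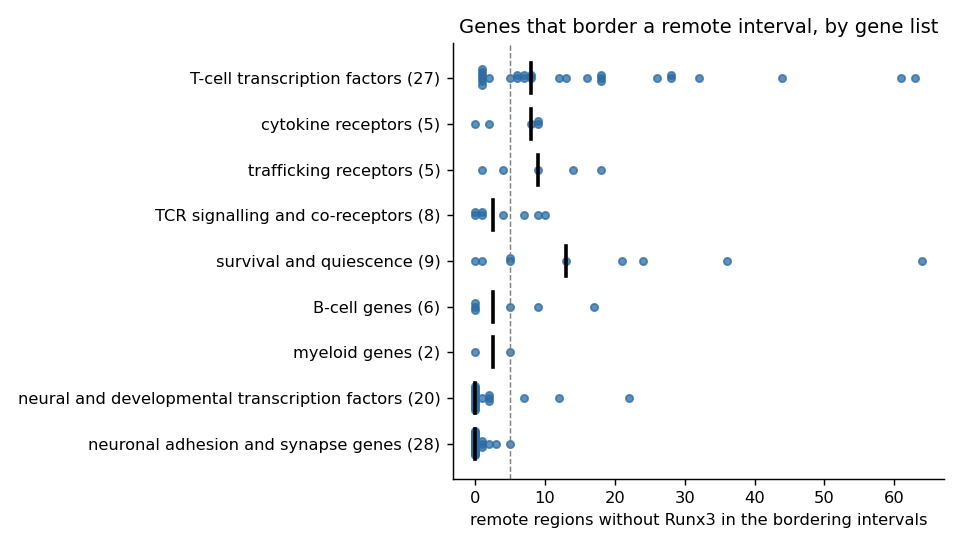
Number of remote H3K4me1-marked regions without Runx3 in the intervals that each gene borders (x axis, regions), for 9 gene lists (rows, with the number of bordering genes). Points are genes, black bars list medians, and the dashed line marks 5 regions, a level met by 12.0% of all bordering genes. T-cell transcription factors reach 63 and survival genes 64, whereas the median of both neural lists is 0.

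The labelled cell type was checked with markers. All 10 marker genes of CD8-TC, such as Cd3e and Cd8a, had an H3K4me1-marked region of any kind within the gene or 5 kb of it, and a median of 43.0% of that span was covered (29.5 to 94.0%). B-cell markers had one in 7 of 7 genes, with a median of 26.1% (18.9 to 83.5%), myeloid and dendritic markers in 4 of 5 (median 14.1%, with Lyz2 at 0), and natural killer cell markers in 3 of 4 (18.5%, with Ncr1 at 0). Erythroid markers had one in 1 of 4 genes, and none of the 5 non-immune markers had any. The part of other cell types in the remote regions beside Bcl11a, Ebf1 and Bank1, or elsewhere, was not tested.

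Chromosomes differed in density by a wide margin. Chromosome 10 held 444 remote regions, 10.9 per Mb of remote sequence (9.89 to 11.9), chromosome 19 held 9.68 per Mb and chromosome 13 held 9.65, whereas chromosome 11, with 62, had the lowest density of the autosomes, 3.57 (2.74 to 4.58). Chromosome X stood apart with 22 remote regions, or 0.660 per Mb (0.414 to 1.00), against 6.30 over all autosomes, a ratio of 0.105 (0.0657 to 0.159). All 76705 H3K4me1-marked regions were also sparser on X, with a ratio of 0.276 (0.262 to 0.291) per Mb of chromosome. When distance was measured from protein-coding TSSs only, the ratio of remote regions on X to those on autosomes was 0.304 (0.261 to 0.352). At 100 kb or more from a TSS, X held no remote region at all, which allows a ratio of up to 0.0711, and among members at or above the median width of all regions the ratio was 0.0544. The labels do not give the sex of the mice, whose part in this ratio was not tested.

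**Figure D4:**
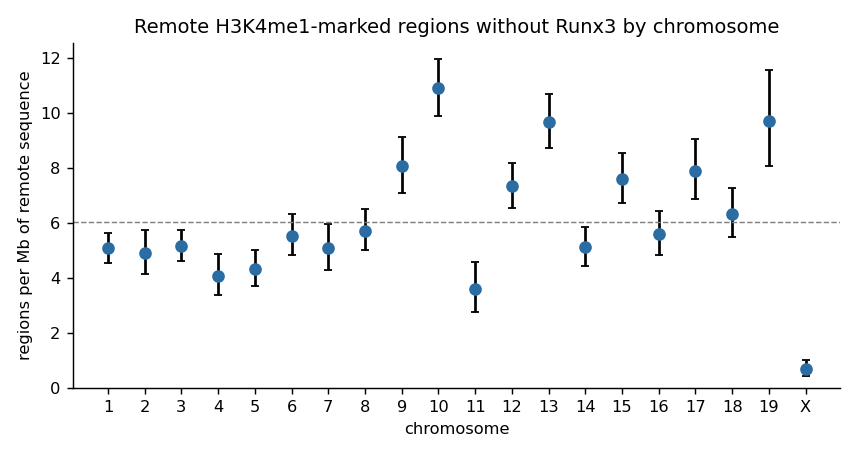
Density of remote H3K4me1-marked regions without Runx3 on each chromosome (y axis, regions per Mb of remote sequence) with exact 95% Poisson intervals. The dashed line is the density over all remote sequence, 6.04 per Mb, and chromosome X lies at 0.660, below every autosome.

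DNA letters known from T-cell transcription factors were counted in the central 200 bp of each remote region, and for comparison in equal flanking windows 5 kb away on either side. A RUNX motif was found near the midpoint of 1489 of the 4389 remote regions (33.9%, 32.5 to 35.3%) and in 26.4% of flanking windows, a difference of 7.56 percentage points (5.89 to 9.25), with the midpoint higher on 20 of 20 chromosomes. Letters that Runx proteins recognise were more frequent at the midpoint than beside it, in regions chosen for having no Runx3 peak. Of the 4 variants TGTGGT was the most frequent, in 19.2% of midpoints and 14.3% of flanks, followed by TGTGGC with 15.2% and 11.9%. Variants with CG were rare, TGCGGT at 2.23% and TGCGGC at 1.87%. Most midpoints with a RUNX motif had 1 (1161 regions), with 281 having 2 and 47 having 3 or more. Over the whole length of the remote region, 3490 of the 4389 held a RUNX motif (79.5%, 78.3 to 80.7%). That share was not set against flanks of the same length.

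An ETS motif, bound by Ets1 and its relatives, was found near the midpoint of 54.9% of remote regions and in 44.6% of flanks, 10.3 points apart (8.46 to 12.1) and higher on 18 of 20 chromosomes. The variant AGGAAG accounted for most of it, with 33.9% against 24.2%, and was higher on 20 of 20 chromosomes. Both motifs stood in the same window in 851 regions (19.4%), and neither stood in 1343 (30.6%). For reference, windows of this width at the midpoints of all 76705 H3K4me1-marked regions held a RUNX motif in 32.4% and an ETS motif in 50.3%.

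Of the other 11 motif groups, 4 were more frequent at the midpoint than in the flanks beyond their intervals. E-box letters (CAGCTG or CAGGTG) rose from 19.2 to 23.4%, KLF and SP letters (CCNCNCCC) from 13.4 to 15.6%, POU letters (ATGCAAAT) from 1.44 to 1.91% and NF-kB letters (GGGANTTCC) from 0.615 to 0.957%. KLF and SP, POU and NF-kB letters were higher on only 12, 12 and 11 of 20 chromosomes. GATA letters (AGATAA or TGATAA) were the single group that fell, from 21.9 to 18.9% (-4.42 to -1.52 points), and were higher at the midpoint on 3 of 20 chromosomes. The intervals are not adjusted for the 13 groups compared. For AP-1, TCF/LEF, FOXO, STAT, IRF and CTCF core letters the interval of the difference included 0. Letters of different groups can overlap, as those of ETS do with IRF and STAT.

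GC content moved with these shares. It was 45.8 ± 6.36% (SD over 4389 regions) at the midpoint and 43.2% in the flanks, a difference of 2.60 points (2.39 to 2.82) with the midpoint higher on 20 of 20 chromosomes. Within windows of 40 to 50% GC, an alternative chosen after seeing the data, the RUNX difference was 6.04 points (3.77 to 8.33) and the ETS difference 10.5 points (8.08 to 12.95). Remote regions had little CpG. The mean ratio of observed to expected CpG was 0.215, and only 24 windows (0.547%) reached a GC content of 55% with a ratio of 0.6, against 1.33% of intergenic regions 5 to 50 kb from a TSS. Windows of which at least 50% was repeated sequence numbered 16 (0.365%).

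The RUNX share was compared across the distance classes. A RUNX motif stood near the midpoint of 32.8 to 35.4% of regions in each class up to 500 kb, while the share in flanks was 27.7% at 50 to 75 kb and 18.1% at 300 to 500 kb, and GC content at the midpoint fell from 46.4% to 42.3% over the same classes. Beyond 500 kb the share was 16.7% (6.68 to 35.9%), from 24 regions, and 18.8% in their flanks. Proximity of Runx3 showed no difference beyond counting error. Among the 1366 remote regions with a Runx3-bound region within 50 kb the share was 35.1%, and among the 3023 farther away 33.4%, a difference of 1.66 points with an interval from -1.36 to 4.71.

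The profile around midpoints also showed more of both motifs at the midpoint than away from it. In remote regions the frequency of RUNX motifs was 2.19 per kb at the midpoint and 1.65 per kb at 2.5 to 3 kb from it, a ratio of 1.33, and that of ETS motifs was 4.39 against 3.44 per kb, a ratio of 1.28. In intergenic regions 5 to 50 kb from a TSS the RUNX ratio was 1.29, and in remote regions with Runx3 it was 1.80. The ETS ratios of these sets were 1.26 and 1.14.

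**Figure D5:**
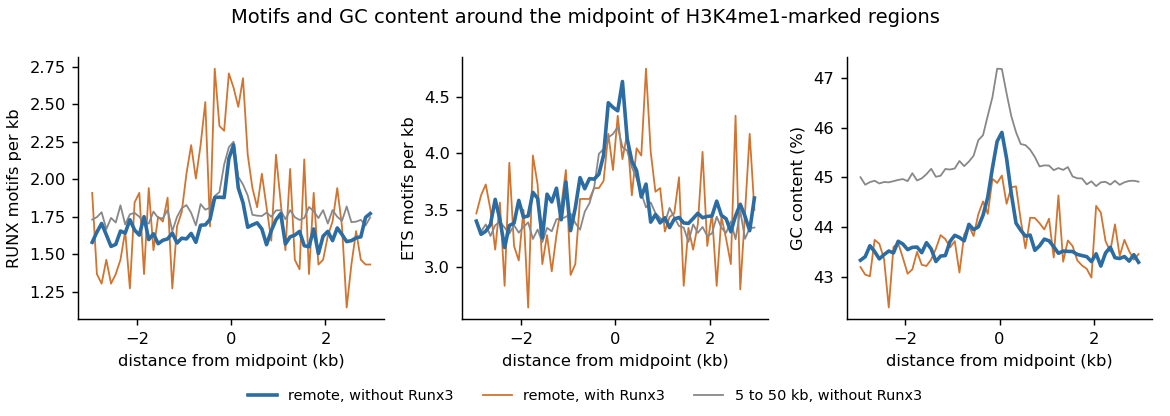
Frequency of RUNX motifs (left) and ETS motifs (middle, both per kb) and GC content (right, percent) against distance from the region midpoint (kb), in steps of 100 bp. Blue is remote without Runx3, orange remote with Runx3 and grey 5 to 50 kb without Runx3. The blue lines are highest near the midpoint, with 2.19 RUNX and 4.39 ETS motifs per kb at it, and the orange lines are noisier as they rest on 314 regions.

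Between remote regions and intergenic regions 5 to 50 kb from a TSS, the RUNX share differed by -0.613 points with an interval from -2.24 to 1.03, which includes 0. For 7 of the 13 groups the interval excluded 0, and for 6 with repeated windows left out. Remote regions held more IRF letters (AANNGAAA, 26.6 against 23.2%, higher on 15 of 20 chromosomes), TCF/LEF letters (CTTTGAA or CTTTGAT, 9.89 against 7.95%, 17 of 20), ETS letters (54.9 against 53.0%, 12 of 20, interval of the difference 0.124 to 3.56 points) and GATA letters (18.9 against 17.5%, 12 of 20, 0.0631 to 2.75 points). They held fewer KLF and SP letters (15.6 against 18.7%, higher on 3 of 20), E-box letters (23.4 against 25.2%, 8 of 20) and CTCF core letters (AGGGGGC or AGGTGGC, 5.06 against 6.06%, 5 of 20). Remote regions were also different in GC content by -1.38 points (-1.60 to -1.15), and the groups with more are rich in A and T except for ETS, whereas those with less are rich in G and C. The part of base composition in these differences was not tested.

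Against the 314 remote regions with Runx3, the RUNX share around the H3K4me1 midpoint was 3.02 points lower, with an interval from -8.66 to 2.32, so a difference was not detectable with this number of regions. Of the 13 groups, FOXO letters (GTAAACA) alone had an interval that excluded 0, at 3.05% against 5.73%, a difference of -2.68 points (-5.86 to -0.53). Among single RUNX variants, TGTGGT differed by -4.97 points (-10.1 to -0.41). The place of the window mattered here. Centred on the Runx3-bound region instead, an alternative chosen after seeing the data, 237 of the 314 windows held a RUNX motif (75.5%, 70.4 to 79.9%), 41.6 points above the remote regions without Runx3 (36.3 to 46.2). For the latter no Runx3 peak exists to centre on, so their windows are placed by the mark alone. Over their whole length, 79.5% of the remote regions without Runx3 held a RUNX motif.

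To show where RUNX letters are densest without a Runx3 peak, a pair of the remote regions with the most RUNX motifs in the central 200 bp is printed in the same notation as above, leaving out windows that consist mostly of repeated sequence.
Ubash3b-2610203C20Rik, chr9:41026810-41027009: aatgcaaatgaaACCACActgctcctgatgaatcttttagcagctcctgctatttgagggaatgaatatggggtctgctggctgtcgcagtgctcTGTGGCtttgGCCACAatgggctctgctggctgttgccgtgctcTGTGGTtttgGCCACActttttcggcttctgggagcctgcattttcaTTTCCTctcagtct
Ret-Bms1, chr6:118300470-118300669: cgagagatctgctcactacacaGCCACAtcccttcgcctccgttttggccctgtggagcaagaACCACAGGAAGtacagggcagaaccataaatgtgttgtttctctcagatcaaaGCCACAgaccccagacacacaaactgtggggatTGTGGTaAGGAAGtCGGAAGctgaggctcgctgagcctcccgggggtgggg
The region between Ubash3b and 2610203C20Rik held 5 RUNX motifs and 1 ETS motif. Ubash3b dampens T-cell receptor signalling. The region between Ret and Bms1 held 4 RUNX motifs and 3 ETS motifs, and in one place the letters of both overlap by a base in a run of capitals. These are matches of letters, and no factor was measured at them other than Runx3, for which no peak was called.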

How the data were processed

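The authors aligned 40 to 42 bp reads to mm9 with ELAND, kept unique alignments, and called regions with MACS on the joined reads of both repeats, with NIS as control. CASAVA 1.6 and 1.7 are named in the submitters' processing notes. The deposited lists give only coordinates of regions, with no score, height, read count or depth per library. Unique alignment can leave repeated sequence with fewer calls. Regions were placed on GENCODE of NCBIM37 and counted with Python 3.11.15, numpy 2.4.6 and scipy 1.17.1. Remote sequence was every base, unknown bases aside, outside protein-coding genes and 50 kb or more from a TSS. Shares carry 95% Wilson intervals, differences Newcombe intervals, densities exact Poisson intervals and ratios of densities exact conditional intervals, and no p-value was computed. Motifs were counted by exact letters on both strands of 200 bp windows, with flanks 5 kb away. A window was called repeated where at least 50% of its 24-base words occurred 10 or more times in the genome. Scripts were tested on simulated data.

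The remote regions and the gene and motif lists were chosen with earlier results of these data known. Named were the 10 widest regions, the 5 longest chains, the regions at the limits, the 10 intervals with the most members, the 5 densest with 200 kb or more of remote sequence, the 5 longest without a member, and up to 4 genes of each list with the most members. Other list genes were named after their counts were seen, as were single motif variants. Alternatives, listed in the closing section, changed the distance limit, the TSSs, the width and Runx3 limits, windows and flanks. Some named items that these rules select are not reported here.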

Additional observations from a re-analysis of the deposited data

How the results depend on the processing

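Over 11 results and 59 alternatives, 46 values kept their direction and their side of the interval, or stayed within 1.5 times a count or within the interval of a share. The RUNX, ETS and GC differences from flanks stayed above 0 under every alternative run, at 5.17 to 8.65, 7.26 to 12.3 and 2.05 to 2.85 points. At 100 kb or more from a TSS there were 1892 remote regions, 4.08 per Mb, in 26.0% of intervals, and 73.3% had another H3K4me1-marked region within 10 kb. With protein-coding TSSs only there were 7141, 7.13 per Mb, in 35.8% of intervals. Members at or above the median width of all H3K4me1-marked regions numbered 1920, were found in 20.2% of intervals and had a neighbour within 10 kb in 80.6%, and with members within 1000 bp of each other merged that share was 60.9%. The RUNX share against remote regions with Runx3 reversed in windows of 100 bp, to 1.12 points above (interval -3.66 to 5.17), and was -41.6 points with windows on the Runx3 midpoint, chosen after seeing the data. The cause of these changes was not tested, beyond what a narrower or wider rule does by its construction. Of T-cell transcription factors, 16 of the 40 listed had at least 5 members by nearest protein-coding TSS, against 20 of the 27 bordering genes by borders. Over all 22208 protein-coding genes, 277 were nearest to at least 5. That base includes genes that border no remote interval, so it is unlike the 4656 bordering genes used as background above. By nearest protein-coding TSS, survival and quiescence had 6 of 22 listed genes with at least 5, and cytokine receptors 3 of 24. Trafficking receptors had 2 of 23 and B-cell genes 2 of 15. T-cell receptor signalling had 1 of 32, myeloid genes 1 of 15, neural transcription factors 1 of 27 and neuronal adhesion genes 0 of 30. Of the motif groups, 6 in place of 7 differed from regions 5 to 50 kb from a TSS with repeated windows left out. No paired analysis was possible because the repeats had been joined before regions were called, which also means that none of them could be taken out in turn. Coordinates without height or depth do not show how strongly a region was marked, nor whether a Runx3 signal below the caller's threshold was present.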
